A study of Mus musculus with 12 samples.

Results

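The IGF ligands, receptors and binding proteins were examined in *Osx*+ osteoblasts of the mouse metaphysis. The group holds the 2 ligands *Igf1* and *Igf2*, the 2 receptors *Igf1r* and *Igf2r*, and the 6 binding proteins *Igfbp2* to *Igfbp7*, 10 genes chosen by name among the 32288 genes and transgenes of the counts table. IGF1 and IGF2 are secreted growth factors that signal through the tyrosine kinase IGF1R, whereas IGF2R binds IGF2 and carries it to lysosomes for degradation. The binding proteins hold the ligands in the extracellular space and either limit or prolong their action, and IGFBP7 binds IGFs only weakly. In bone, osteoblasts secrete IGFs and several binding proteins, and IGF2 is an imprinted fetal and juvenile growth factor whose gene lies beside *H19*.

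The study compared mGFP+ cells sorted from the metaphysis of long bones in 4 groups by bulk RNA-seq. All mice carried *Osx-CreERT2*, a tamoxifen-dependent recombinase driven by the promoter of *Osx* (*Sp7*), and the *mTmG* reporter, and all received tamoxifen, so that mGFP marks cells that expressed *Osx* and their descendants. Juvenile *Osx*+ osteoblasts (4 libraries, 3 weeks of age) and adult *Osx*+ osteoblasts (4 libraries, 8 weeks of age) had no further allele, were pooled from 2 male mice per library and were taken 2 days after 3 days of tamoxifen. The *c-Myc* osteoblasts (2 libraries) also carried *LSL-tTA* and *Col1a1*::*TetO-c-Myc*, and the *c-Myc* + *R172H* osteoblasts (2 libraries) carried *Trp53-LSL-R172H* besides. These 4 libraries came from mice given tamoxifen on 2 days and taken 7 days after it, with the shaft cut 5 mm rather than 2 mm from the growth plate. On sex the methods differ within themselves: a general statement gives males for RNA-seq, whereas the account of cell preparation gives both sexes for the induced mice. The titles of the induced libraries give 3 weeks of age, whereas the protocol gives 5 weeks for their dissection. The methods also give doxycycline or tetracycline in drinking water, stopped before analysis, for mice with such inducible transgenes or for pregnant females. Tamoxifen was dosed by body weight in the reporter mice and per mouse for induction. In comparisons with juvenile or adult osteoblasts the transgene, these drugs, and the dose and days of tamoxifen therefore cannot be told apart. Nor can the days after tamoxifen, the length of bone taken, the age at dissection and, in part, sex be told apart from these. Nothing in the labels says how many mice stand behind an induced library, and the p-values below measure the spread between these libraries.

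Library totals ranged from 9066154 to 15684412 counts. *Myc* was at 39.2 to 51.8 normalized CPM (counts scaled to a common library size with TMM factors over the 12 libraries) in the 8 libraries without the transgene and at 638 to 766 CPM in the 4 induced libraries. The osteoblast markers were all present in every group, and their summed level was lower in the induced libraries, with 566586 to 828711 CPM in juvenile, 339781 to 611644 in adult, 102289 to 134595 in *c-Myc* and 58025 to 60071 in *c-Myc* + *R172H* libraries. All 14 chondrocyte markers were detected in each group as well, with sums of 18525 to 36379, 44253 to 141115, 1930 to 2160 and 902 to 1075 CPM in the same order. Sums over 8 marrow stromal markers were 335 to 427, 437 to 674, 130 to 215 and 120 to 137 CPM, and those of 7 mural markers were 341 to 438, 470 to 882, 236 to 253 and 182 to 200 CPM. Osteocyte markers (5, *Fgf23* at 0 in all groups) summed to 361 to 715, 282 to 348, 142 to 167 and 78.1 to 97.9 CPM, osteoclast markers (5, *Ocstamp* and *Dcstamp* at 0) to 200 to 327, 218 to 406, 85.8 to 106 and 53.5 to 53.6 CPM, and tendon and periosteal fibroblast markers (6) to 106 to 190, 114 to 154, 43.6 to 44.4 and 25.5 to 25.7 CPM. Endothelial, haematopoietic, erythroid and muscle lists stayed under 10 CPM in sum in each library, and hepatocyte markers reached 14.8 CPM in adult and 0.0905 CPM in juvenile libraries. *Xist* was expressed in replicate 2 of both induced groups, at 217 to 237 CPM, and at no more than 1.23 CPM elsewhere. In bulk libraries such as these, fewer cells of a type and less RNA per cell cannot be told apart.

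The 10 genes lie on 7 chromosomes of mm10 (GRCm38), and each is annotated as protein coding. *Igf2* spans 142650766 to 142666816 on the minus strand of chromosome 7, and *Igf1r* lies on the same chromosome from 67952827 to 68233668. *Igfbp2* (72824503 to 72852474) and *Igfbp5* (72857932 to 72874884) are neighbours on chromosome 1, with their 3′ ends facing each other across 5457 bp. *Igfbp3* and *Igfbp4* are both on chromosome 11 but far apart, at 7206086 and 99041244. The remaining genes start at 87858265 on chromosome 10 (*Igf1*), 12682406 on chromosome 17 (*Igf2r*), 102144362 on chromosome 15 (*Igfbp6*) and 77349240 on chromosome 5 (*Igfbp7*). The strand setting of the counting was not given in the sources used here, which matters most for *Igfbp7*: its exons share 85 bp with *Polr2b* on the opposite strand, a gene of up to 1240 counts per library. The antisense genes *Igf2os* and *Igf1os* had no count in any library, and *Airn*, which runs antisense through *Igf2r*, had at most 54 counts and shares no exon base with it. *Igf2* shares 3596 exon bases with *Gm49394* on the same strand, which is not a row of the counts table, and how reads common to both were counted is not given in the sources used here.

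RefSeq lists 14 start sites for the 10 genes in its GRCm38.p6 annotation, 4 of them for *Igf2* and 2 for *Igfbp2*. Because the induced groups carry *c-Myc*, the 250 bases before each start were searched on both strands for the palindromic E-box CACGTG, the letters that MYC and MAX bind best. The windows of *Igf2r* and of the upstream start of *Igfbp2* held it, 2 of 14, compared with 6.02% of 32851 windows of all genes. In the sequences below, the only 2 of the group with these letters, capitals mark the E-box and the last base lies just before the start site.
*Igf2r*, chr17:12769707-12769956, minus strand: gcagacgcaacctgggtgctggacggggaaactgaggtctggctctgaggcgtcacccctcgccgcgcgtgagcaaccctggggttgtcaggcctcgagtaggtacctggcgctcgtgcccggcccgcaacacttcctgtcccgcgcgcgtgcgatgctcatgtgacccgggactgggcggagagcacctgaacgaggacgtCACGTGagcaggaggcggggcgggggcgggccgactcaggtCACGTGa
*Igfbp2*, chr1:72824230-72824479, plus strand: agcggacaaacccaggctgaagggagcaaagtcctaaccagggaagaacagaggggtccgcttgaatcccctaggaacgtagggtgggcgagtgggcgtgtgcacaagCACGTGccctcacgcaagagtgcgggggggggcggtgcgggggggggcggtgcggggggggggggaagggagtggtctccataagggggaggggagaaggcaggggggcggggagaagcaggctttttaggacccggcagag
*Igf2r* carried the letters at 2 places, beginning 48 and 7 bases before the start, and *Igfbp2* at 1 place, beginning 142 bases before it. The windows of *Igf2*, *Igfbp3*, *Igfbp4*, *Igfbp5* and *Igfbp7* held none. The GLI letters TGGGTGGTC, searched because the study examined Hedgehog signaling, were in none of the 14 windows and in 0.225% of all windows. A match describes the letters in the window and does not show binding.

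To compare genes with each other, CPM were divided by the length of all exons of the gene in kb. In juvenile osteoblasts *Igfbp4*, which binds both ligands and mostly limits their action, had the highest level with 50.8 ± 10.2 CPM per kb (SD, n = 4). *Igfbp5*, an abundant binding protein of bone matrix, and *Igfbp7* followed at 33.9 ± 6.55 and 33.5 ± 4.25 CPM per kb, and their ranges overlapped. *Igf2r* came next at 23.8 ± 1.93 CPM per kb, above *Igf2* at 7.34 ± 4.39 and *Igf1r* at 3.81 ± 0.876, which overlapped each other. *Igfbp3*, the main carrier in serum, was at 1.10 ± 0.527 CPM per kb and *Igf1* at 0.422 ± 0.215 CPM per kb, again with overlapping ranges. The lowest were *Igfbp2* and *Igfbp6*, with 2 and 0 counts in the 4 juvenile libraries together.

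The order of levels differed between the groups. In adult osteoblasts *Igfbp4* (75.0 ± 16.0 CPM per kb), *Igfbp7* (70.7 ± 8.58) and *Igfbp5* (45.6 ± 12.8, all SD, n = 4) led, each overlapping the next in range. *Igf1r* (4.45 ± 0.212 CPM per kb) stood above *Igf2* (1.66 ± 0.508) there, without overlap. In *c-Myc* osteoblasts *Igfbp5* (22.9 ± 1.33 CPM per kb, SD, n = 2), *Igf2r* (22.8 ± 0.170) and *Igfbp4* (20.5 ± 3.76) overlapped at the top, and *Igfbp7* was at 7.30 ± 1.05 CPM per kb. In *c-Myc* + *R172H* osteoblasts *Igfbp5* (25.8 ± 4.06 CPM per kb, SD, n = 2) overlapped *Igf2r* (22.9 ± 2.11), both were above *Igfbp4* (15.6 ± 0.938), and *Igfbp7* (3.25 ± 0.725) was below *Igf1r* (4.17 ± 0.377). With the longest transcript as the length, *Igf2r* and *Igfbp4* moved ahead of *Igfbp5* in *c-Myc* osteoblasts.

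**Figure D1:**
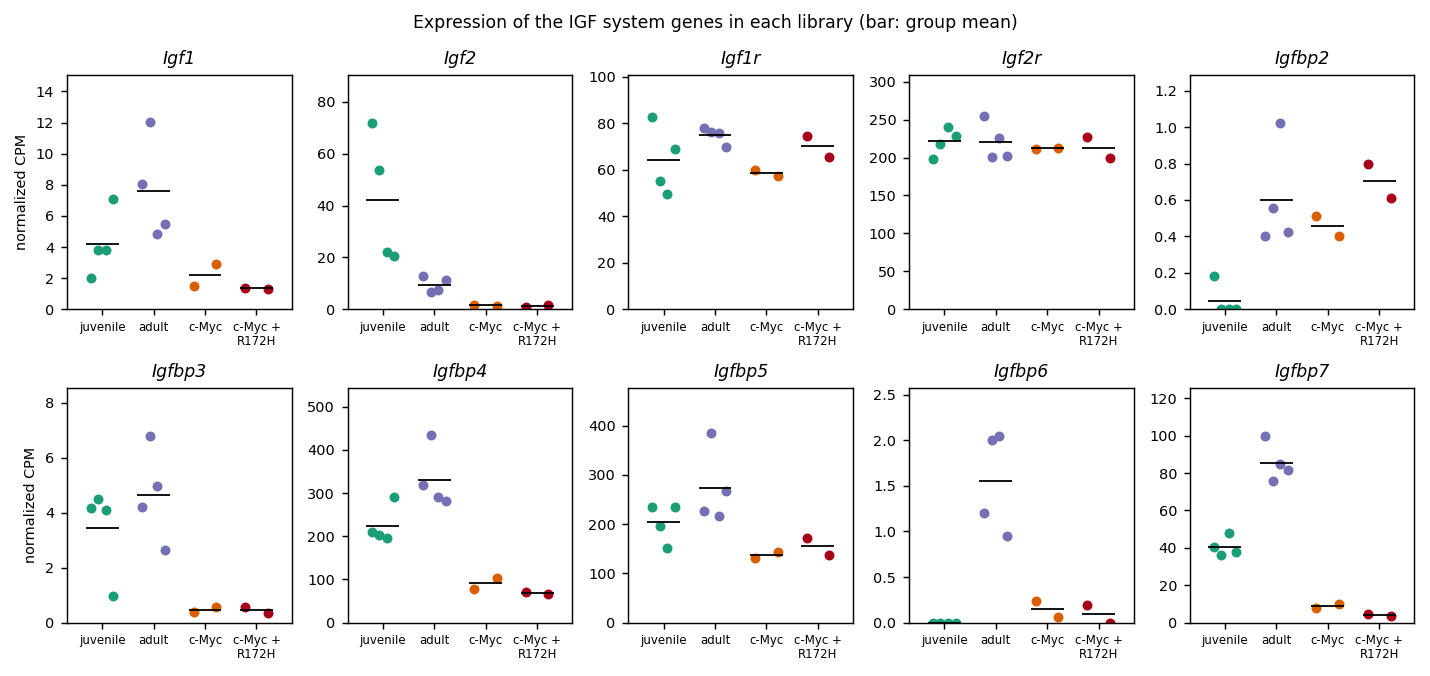
Normalized CPM of each of the 10 genes (vertical axes, linear, each with its own range) in the 12 libraries, by group. Points are libraries in order of replicate number and bars are group means. *Igf2* is highest in the juvenile libraries and lowest in the induced ones, *Igf2r* stays between 198 and 255 CPM, and *Igfbp7* does not overlap between any of the 4 groups.

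The ligand *Igf2* had the highest level in juvenile osteoblasts and *Igf1* in adult osteoblasts. Juvenile replicates 1 to 4 had 71.9, 53.6, 21.9 and 20.6 CPM of *Igf2*. Adult replicates 1 to 4 had 12.6, 6.69, 7.42 and 11.3 CPM, the *c-Myc* libraries 1.49 and 1.44 CPM, and the *c-Myc* + *R172H* libraries 0.891 and 1.63 CPM. The juvenile libraries fell into a high and a low pair, all above the adult libraries, and the adult libraries were all above the induced ones. The log2 fold change of *Igf2* between juvenile and adult osteoblasts was 2.13 (SE 0.45, adjusted p = 0.0344, edgeR quasi-likelihood test over all 11345 genes tested). This call depended on the libraries used: without juvenile replicate 2, or without any single adult library, the adjusted p was between 0.0679 and 0.0914, and with library totals in place of TMM it was 0.0878 (0.069 without the filter on low counts). The call was lost in these 7 of 17 alternative fits and kept in 10, DESeq2 among the latter.

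In *c-Myc* osteoblasts *Igf2* was lower than in juvenile osteoblasts by 30.1-fold (log2 fold change -4.91, SE 0.65, adjusted p = 0.000127, edgeR), and in *c-Myc* + *R172H* osteoblasts by 34.7-fold (-5.12, SE 0.66, adjusted p = 9.49e-05). The induced libraries kept counts of *Igf2* in each, and neither call was lost in any of 19 alternative fits, with adjusted p up to 0.0268 and 0.0197. Both comparisons use the same 4 juvenile libraries and one fit. Between the 2 induced groups the ranges of *Igf2* overlapped (log2 fold change -0.21, SE 0.81, adjusted p = 1).

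*Igf1*, the ligand under control of growth hormone, was low throughout. Its level was 1.99, 3.79, 3.84 and 7.10 CPM in juvenile replicates 1 to 4 and 8.03, 12.04, 4.86 and 5.48 CPM in adult replicates 1 to 4. The *c-Myc* libraries had 1.49 and 2.93 CPM and the *c-Myc* + *R172H* libraries 1.36 and 1.32 CPM. The ages overlapped, the *c-Myc* libraries overlapped the juvenile ones, and the *c-Myc* + *R172H* libraries were below every other library. *Igf1* did not pass the test between the ages (log2 fold change -0.88, SE 0.40, adjusted p = 0.236) or between *c-Myc* and juvenile osteoblasts (-0.97, SE 0.54, adjusted p = 0.150), and it was lower in *c-Myc* + *R172H* than in juvenile osteoblasts (-1.67, SE 0.57, adjusted p = 0.0240, all edgeR). That call ended without either *c-Myc* + *R172H* library (adjusted p = 0.122 and 0.124) and with library totals (0.331). The 3 genes whose pattern over the 12 libraries was most like that of *Igf1* were *Cxcl12* (Pearson's r = 0.954 of log2(CPM + 1), among 8832 genes), *Adipoq* (0.936) and *9130023H24Rik* (0.935). *Cxcl12* and *Adipoq* belong to the marrow stromal markers, and whether marrow stromal cells account for *Igf1* was not tested.

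Per length, *Igf2* made up 92.2 ± 6.68% of the level of both ligands in juvenile osteoblasts and 68.2 ± 13.0% in adult osteoblasts (SD, n = 4). Its share was 54.6 ± 12.4% in *c-Myc* and 60.6 ± 10.5% in *c-Myc* + *R172H* osteoblasts (SD, n = 2). The juvenile libraries, from 83.4% to 98.4%, did not overlap any other group, whereas the adult libraries spanned 49.0% to 78.1% and overlapped both induced groups. The summed level of the ligands was 7.76 ± 4.22 CPM per kb in juvenile, 2.43 ± 0.508 in adult, 0.480 ± 0.0962 in *c-Myc* and 0.355 ± 0.0885 in *c-Myc* + *R172H* osteoblasts.

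The receptors varied least. *Igf1r*, the signaling receptor, was at 82.4, 55.1, 49.6 and 68.9 CPM in juvenile, 77.7, 76.0, 75.8 and 69.6 CPM in adult, 59.7 and 57.3 CPM in *c-Myc* and 74.5 and 65.5 CPM in *c-Myc* + *R172H* libraries. Neighbouring groups in its order overlapped, and the juvenile range held both *c-Myc* libraries. Both *c-Myc* + *R172H* libraries were above both *c-Myc* libraries for *Igf1r* (log2 fold change 0.28, SE 0.20), which did not pass the test. With only these 2 groups in the fit it was called (adjusted p = 0.0318, edgeR). *Igf2r*, the clearance receptor, was at 198, 218, 240 and 229 CPM in juvenile, 255, 201, 225 and 202 CPM in adult, 211 and 213 CPM in *c-Myc* and 227 and 199 CPM in *c-Myc* + *R172H* libraries. All 4 groups overlapped for *Igf2r*. The log2 fold changes against juvenile osteoblasts were -0.20 (SE 0.17) and 0.08 (SE 0.17) for *Igf1r* and -0.13 (SE 0.09) and -0.10 (SE 0.09) for *Igf2r* in *c-Myc* and *c-Myc* + *R172H* osteoblasts, with adjusted p from 0.284 to 0.718 (edgeR). The scaling bears on these values: with library totals, under which the median gene itself moved by 0.87 and 1.12, *Igf1r* was at 0.62 and 1.11 and *Igf2r* at 0.72 and 0.95, so that *Igf2r* turned positive in both and *Igf1r* in *c-Myc* osteoblasts. Each of these was called higher there, with adjusted p of 0.0263 and 0.000542 for *Igf1r* and 0.000176 and 1.08e-05 for *Igf2r* (edgeR). Between the ages the log2 fold change was -0.23 (SE 0.15, adjusted p = 0.430) for *Igf1r* and -0.0026 (SE 0.12, adjusted p = 0.997) for *Igf2r*.

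*Igfbp7* was the binding protein whose groups were most clearly apart. It was at 40.6, 36.1, 47.7 and 37.7 CPM in juvenile, 99.9, 75.6, 85.0 and 81.4 CPM in adult, 7.93 and 9.73 CPM in *c-Myc* and 4.55 and 3.31 CPM in *c-Myc* + *R172H* libraries. No library of any group overlapped another group. Expression was 2.12-fold lower in juvenile than in adult osteoblasts (log2 fold change -1.08, SE 0.13, adjusted p = 0.000372), 4.80-fold lower in *c-Myc* than in juvenile osteoblasts (-2.26, SE 0.20, adjusted p = 1.22e-06) and 10.6-fold lower in *c-Myc* + *R172H* than in juvenile osteoblasts (-3.40, SE 0.22, adjusted p = 6.58e-08, all edgeR). These 3 calls held in each of 17, 19 and 19 alternative fits. Between the 2 induced groups *Igfbp7* was 2.21-fold lower with *R172H* (log2 fold change -1.14, SE 0.23), which missed the threshold (adjusted p = 0.0552, unadjusted p = 0.000276) and passed it in 9 of 19 alternative fits, DESeq2 among them (adjusted p = 0.000609), but not without both libraries that express *Xist* (log2 fold change -0.81, adjusted p = 1). The genes most like *Igfbp7* over the 12 libraries were *Col6a2* (r = 0.996), *Col6a1* (0.995) and *Col15a1* (0.992), which encode collagens of the matrix around cells. Chondrocyte, marrow stromal, mural and osteoclast marker sums had the same order of group means as *Igfbp7*, and their part in its differences was not tested. Not each marker kept this order: *Rgs5* of the mural list was at 16.1 and 21.5 CPM with *c-Myc* and at 0 to 2.80 CPM in juvenile libraries. With *c-Myc*, *Col11a2* alone gave 1343 and 1795 CPM of chondrocyte sums of 1930 and 2160 CPM.

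*Igfbp4* followed the same order of groups with smaller steps. Juvenile libraries had 209, 202, 195 and 292 CPM and adult libraries 318, 435, 292 and 281 CPM. The induced libraries had 78.9 and 102 CPM with *c-Myc* and 71.9 and 66.0 CPM with *c-Myc* + *R172H*. Juvenile replicate 4 alone reached into the adult range, and both induced groups were below all 8 control libraries. *Igfbp4* fell 2.59-fold in *c-Myc* osteoblasts (log2 fold change -1.37, SE 0.17, adjusted p = 2.27e-05) and 3.36-fold in *c-Myc* + *R172H* osteoblasts (-1.75, SE 0.17, adjusted p = 3.02e-06), and both calls held in all 19 alternative fits. The difference between the ages just missed the threshold (-0.57, SE 0.16, adjusted p = 0.0515, all edgeR) and passed it without juvenile replicate 4 (-0.72, adjusted p = 0.0272) and in 6 of 17 alternative fits in all. *Itgav* (r = 0.989), *Col8a1* (0.987) and *Fbn1* (0.987) were the genes most like it.

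*Igfbp5* changed least among the abundant binding proteins. It was at 234, 196, 151 and 234 CPM in juvenile, 227, 385, 217 and 266 CPM in adult, 132 and 143 CPM in *c-Myc* and 172.3 and 138 CPM in *c-Myc* + *R172H* libraries. The *c-Myc* libraries were below all controls, whereas *c-Myc* + *R172H* replicate 1 was above the lowest juvenile library. With TMM scaling *Igfbp5* was lower in *c-Myc* than in juvenile osteoblasts (log2 fold change -0.64, SE 0.16, adjusted p = 0.00580) and in *c-Myc* + *R172H* osteoblasts (-0.44, SE 0.16, adjusted p = 0.0346, both edgeR), and with library totals it turned to 0.19 and 0.60, the latter with an adjusted p of 0.0168 in the opposite direction. The first call ended without *c-Myc* replicate 1 (adjusted p = 0.0637), and the second without juvenile replicate 1, 2 or 4 or *c-Myc* + *R172H* replicate 2 (0.0578 to 0.246), without both libraries that express *Xist* (0.273) and with all 12 libraries in the fit (0.0997). Between the ages it did not pass the test (-0.43, SE 0.18, adjusted p = 0.202).

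*Igfbp3* was low in all groups. Juvenile libraries had 4.16, 4.51, 4.11 and 0.980 CPM and adult libraries 4.22, 6.80, 4.99 and 2.64 CPM, against 0.373 and 0.575 CPM with *c-Myc* and 0.562 and 0.356 CPM with *c-Myc* + *R172H*. The ages overlapped, and all induced libraries were below all controls. *Igfbp3* was 7.54-fold lower in *c-Myc* (log2 fold change -2.92, SE 0.75, adjusted p = 0.00575) and 7.61-fold lower in *c-Myc* + *R172H* than in juvenile osteoblasts (-2.93, SE 0.75, adjusted p = 0.00514, both edgeR). Without *c-Myc* replicate 1 the first adjusted p was 0.0741, and without *c-Myc* + *R172H* replicate 2 the second was 0.0629. The age difference was -0.44 (SE 0.46, adjusted p = 0.674).

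*Igfbp6*, which prefers IGF2 over IGF1, and *Igfbp2*, which also favours IGF2, were near the limit of detection. *Igfbp6* had 12, 18, 16 and 9 counts in adult libraries and none in the 4 juvenile ones. Set against a floor of 3 counts over the group, it was at least 18.4-fold lower in juvenile than in adult osteoblasts (adjusted p = 0.0171, edgeR), a call that ended without juvenile replicate 2 (0.051) or adult replicate 3 (0.0527). The *c-Myc* libraries had 5 and 1 counts and the *c-Myc* + *R172H* libraries 4 and 0, too few to be tested. *Igfbp2* had 2, 0, 0 and 0 counts in juvenile, 4, 5, 8 and 4 in adult, 11 and 7 in *c-Myc* and 17 and 12 in *c-Myc* + *R172H* libraries. Per normalized depth this was 8.41 times the juvenile level in *c-Myc* osteoblasts (95% counting interval 2.01 to 74.8), 12.8 times in *c-Myc* + *R172H* osteoblasts (3.25 to 111) and 10.5 times in adult osteoblasts (2.57 to 92.5), intervals that cover counting error only. In the edgeR fit *Igfbp2* was called higher in *c-Myc* + *R172H* osteoblasts (log2 fold change 3.48, SE 1.22, adjusted p = 0.0281) and not in *c-Myc* osteoblasts (2.85, SE 1.27, adjusted p = 0.0752). With *c-Myc* it was called without juvenile replicate 1, which holds both juvenile counts (adjusted p = 0.0290), and with library totals (3.57, adjusted p = 0.0232). The call with *c-Myc* + *R172H* was lost in 9 of 17 alternative fits, DESeq2 among them (0.0591), and when juvenile replicate 2 or any single induced library was left out (0.0533 to 0.177). Both genes had enough counts for a test only through the groups in which they were high.

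**Figure D2:**
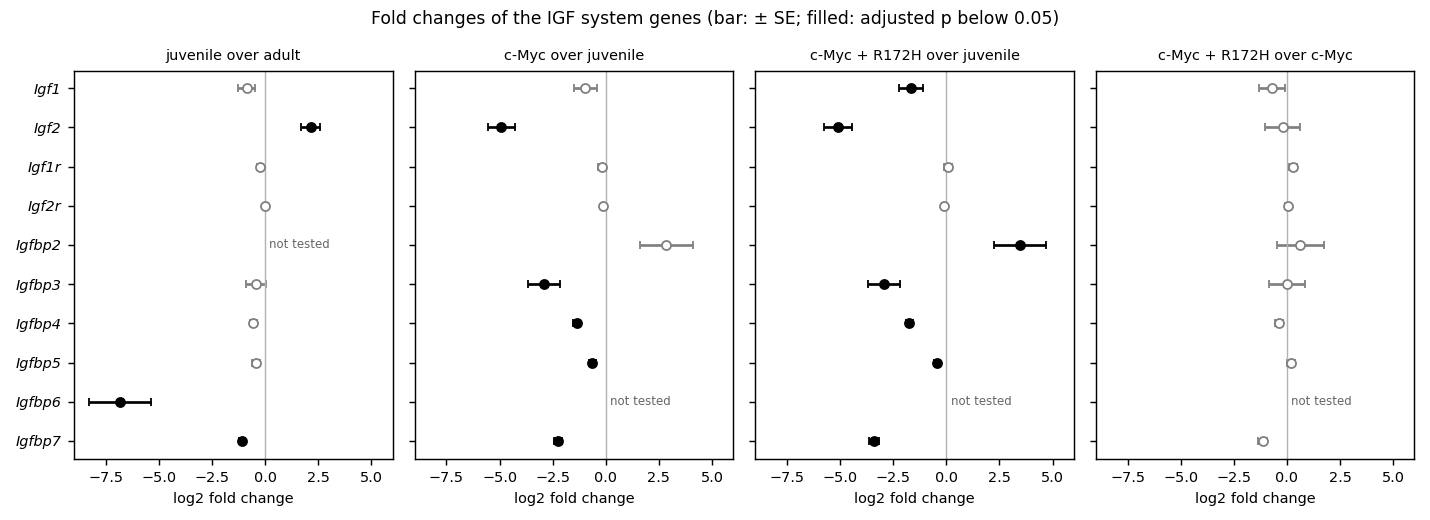
Log2 fold changes with their SE (horizontal axes) of the 10 genes in the 4 comparisons, from edgeR with TMM scaling. Filled points passed an adjusted p of 0.05, open points did not, and genes with too few counts are marked as not tested. Against juvenile osteoblasts the called genes lie to the left of 0, except for *Igfbp2* with *c-Myc* + *R172H*.

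Counted by comparison, 9 of the 10 genes could be tested each time. Between the ages 1 gene was higher in juvenile osteoblasts (*Igf2*) and 2 were lower (*Igfbp6* and *Igfbp7*), where 1.89% of all tested genes were higher and 3.23% lower. Of these, *Igfbp6* had enough counts for the test only through the adult libraries, where it was high. The median log2 fold change was -0.44 over the 9 genes and 0.000934 over all genes. In *c-Myc* osteoblasts 5 genes were lower than in juvenile osteoblasts and 0 higher (edgeR; 25.0% and 28.4% of all genes), with medians of -0.97 and 0.04. DESeq2 called 0 higher as well, and the only other member with an unadjusted p under 0.05 was *Igfbp2*. In *c-Myc* + *R172H* osteoblasts 6 were lower and 1 higher (26.3% and 30.4%), with medians of -1.67 and 0.08. The 1 higher gene, *Igfbp2*, had enough counts for this test only through the induced libraries, where it was high. Without both libraries that express *Xist*, a check chosen after seeing the data, 4 genes were lower with *c-Myc*, and 3 were lower and 0 higher with *c-Myc* + *R172H*. Between the 2 induced groups edgeR called 0 of 9 genes in either direction, where 0.461% of all genes were lower and 0.00794% higher. Only *Igfbp7* had an unadjusted p under 0.05 there, and it was the 1 gene that DESeq2 called.

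The mix of binding proteins differed between the groups. Their summed level was 119 ± 12.6 CPM per kb in juvenile and 195 ± 24.7 in adult osteoblasts (SD, n = 4), and 51.2 ± 6.03 in *c-Myc* and 45.3 ± 5.96 in *c-Myc* + *R172H* osteoblasts (SD, n = 2). Only the 2 induced groups overlapped. *Igfbp7* made up 28.4 ± 5.41% of the sum in juvenile, 36.9 ± 6.65% in adult, 14.2 ± 0.371% in *c-Myc* and 7.13 ± 0.663% in *c-Myc* + *R172H* osteoblasts. *Igfbp5* took 28.3 ± 3.90%, 23.2 ± 4.00%, 44.8 ± 2.67% and 56.9 ± 1.48% in the same order. The share of *Igfbp4* was 42.3 ± 4.17%, 38.3 ± 3.17%, 39.9 ± 2.64% and 34.6 ± 2.49%. For *Igfbp5* and *Igfbp7* the 2 control groups overlapped, and each induced group was apart from the controls and from the other, while the shares of *Igfbp4* overlapped between neighbouring groups. These shares are a description without a test, and they do not depend on how libraries were scaled.

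**Figure D3:**
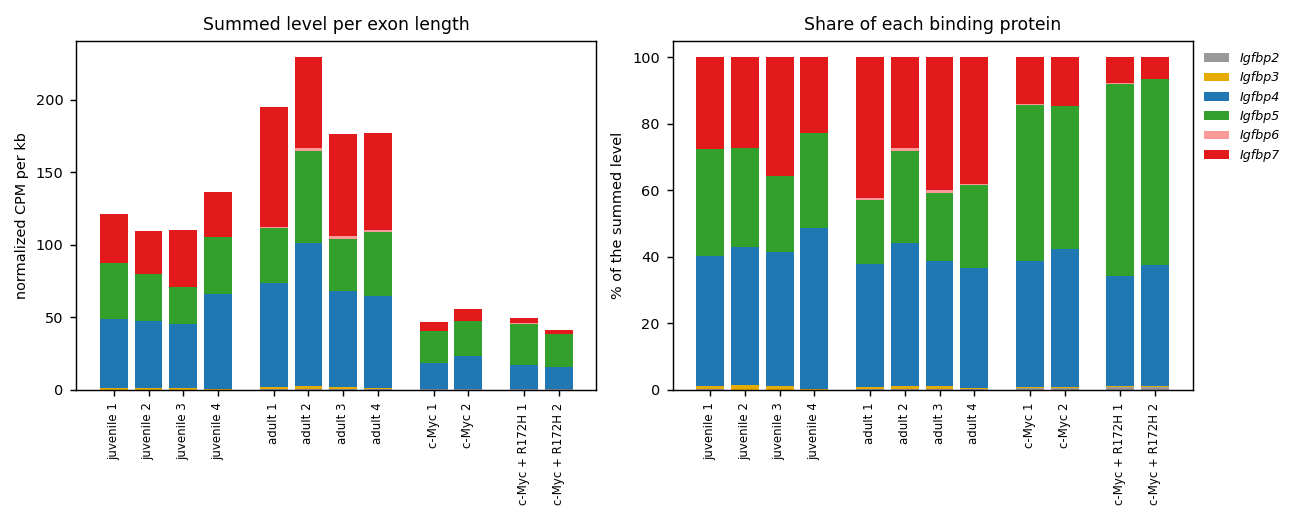
Left, normalized CPM per kb of exon length summed over the 6 binding proteins in each library. Right, the percent of that sum taken by each; bars are single libraries, grouped as juvenile, adult, *c-Myc* and *c-Myc* + *R172H*. *Igfbp4*, *Igfbp5* and *Igfbp7* fill nearly the whole sum, and the part of *Igfbp7* shrinks from adult to *c-Myc* + *R172H* libraries.

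The other genes of the pathway were followed in a list of 73 genes, of which 63 could be tested between the ages and 64 in the other comparisons. Between juvenile and adult osteoblasts 4 were higher (*Jak2*, *Insr*, *Irs2* and *Inppl1*) and 2 lower (*Htra1* and *Ctsd*), where 1.89% and 3.23% of all genes were called. None of the 4 was called with library totals or without juvenile replicate 1, juvenile replicate 2 or adult replicate 4. Both lower ones were called with library totals too. The count of lower genes was 0 without juvenile replicate 2. It was 1 without juvenile replicate 1 or 3, without adult replicate 1, 3 or 4, and with a replicate block. In *c-Myc* osteoblasts 10 were higher and 24 lower than in juvenile osteoblasts, and in *c-Myc* + *R172H* osteoblasts 11 and 26, where 28.4% and 25.0% and then 30.4% and 26.3% of all genes were called. Medians over the list were -0.02, -0.28 and -0.28. Library totals bear on these counts: 6 of the 24 and 12 of the 26 lower genes then changed sign. Those called higher were then 37 and 40 of the 64 tested, where 6803 and 7668 of all 12588 genes were called higher. Between the 2 induced groups 0 of 64 were called by edgeR, 4 had an unadjusted p under 0.05, and DESeq2 called 1.

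Of the regulators and partners of *Igf2*, *H19*, the maternally expressed RNA beside it, was at 35.6, 67.0, 112 and 30.5 CPM in juvenile and 228, 64.3, 99.7 and 248 CPM in adult libraries. The ages overlapped, and *H19* did not pass the test (log2 fold change -1.40, SE 0.61, adjusted p = 0.272), with the opposite sign to *Igf2*. In the induced libraries it was at 0.980, 1.67, 2.06 and 2.75 CPM, below every control library, and fell by 5.60 (SE 0.70, adjusted p = 0.000178) and by 4.70 (SE 0.65, adjusted p = 0.000277) on the log2 scale with *c-Myc* and with *c-Myc* + *R172H*. *Plagl1*, an imprinted transcription factor known to act on *Igf2* and *H19*, fell by 1.46 (SE 0.19) and by 1.51 (SE 0.19), the second of which was not called with library totals (adjusted p = 0.0809). *Igf2bp2*, which encodes an RNA-binding protein of IGF2 mRNA, rose by 1.92 (SE 0.31, adjusted p = 0.000219) and 1.84 (SE 0.31, adjusted p = 0.000279), and its 4 induced libraries at 26.3 to 30.6 CPM were above all controls. *Igf2bp1* was called lower in both (-4.52, SE 1.53, and -3.66, SE 1.40), but it had 0 counts in 1 juvenile library, overlapped between groups and was not called with library totals (adjusted p = 0.0518 and 0.107). With 2 counts in the *c-Myc* libraries, its juvenile level was 26.2 times theirs (95% counting interval 6.88 to 222). *Igf2bp3* was not called against juvenile osteoblasts (-2.13, SE 1.36, and -2.48, SE 1.39) and could not be tested between the ages.

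Upstream of *Igf1*, the growth hormone receptor *Ghr* was at 15.8, 19.5, 16.6 and 27.1 CPM in juvenile and 13.3 to 23.7 CPM in adult libraries. It was at 5.55 and 5.52 CPM with *c-Myc* and 3.80 and 3.46 CPM with *c-Myc* + *R172H*. The induced libraries were below all controls, with log2 fold changes of -1.89 (SE 0.26, adjusted p = 5.69e-05) and -2.48 (SE 0.27, adjusted p = 7.33e-06), while the age difference of *Ghr* was 0.12 (SE 0.22, adjusted p = 0.832, all edgeR). Of the 6 genes of the growth hormone arm, 4 were lower in *c-Myc* and 5 in *c-Myc* + *R172H* osteoblasts (25.0% and 26.3% of all genes). With library totals 3 of each were still called, and *Jak2* and *Stat5a* changed sign in *c-Myc* + *R172H* osteoblasts. *Jak2*, the kinase bound to the receptor, was higher in juvenile than in adult osteoblasts (0.55, SE 0.15, adjusted p = 0.0381), a call that library totals ended (0.33, adjusted p = 0.263).

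Of 7 tested genes of the carriers, proteases and protease inhibitors, 4 were lower with *c-Myc* and 3 with *c-Myc* + *R172H* and 0 higher (25.0% and 26.3% of all genes lower). With library totals *Pappa* and *Htra1* were called lower in both, *Ctsd* in neither, and *Adam9* turned positive with *c-Myc* (0.39). *Stc2* (1.01 and 1.15) and *Adamts1* (1.00 and 0.92) were then called higher in both, and *Adam9* (0.75) with *c-Myc* + *R172H*. At that setting the median gene moved by 0.87 and 1.12. *Pappa*, which encodes the main protease of IGFBP4, was at 30.4 to 56.8 CPM in juvenile and 36.6 to 49.7 CPM in adult libraries and at 6.86, 8.80, 7.03 and 5.85 CPM in the induced ones. It was lower with *c-Myc* (-2.64 on the log2 scale, SE 0.26, adjusted p = 3.15e-06) and with *c-Myc* + *R172H* (-2.90, SE 0.26, adjusted p = 1.39e-06). *Htra1*, a secreted serine protease that also cleaves binding proteins, was lower in juvenile than in adult osteoblasts (-0.56, SE 0.11, adjusted p = 0.00934) and lower again with *c-Myc* (-1.97, SE 0.12) and *c-Myc* + *R172H* (-2.46, SE 0.13), the order of groups seen for *Igfbp7*. Without juvenile replicate 2 no pathway gene was called lower between the ages, *Htra1* included. The stanniocalcins *Stc1* and *Stc2*, inhibitors of PAPP-A, did not pass the test in any comparison with TMM scaling. *Pappa2* had no count, *Igfbp1* had 1 count in 1 library, and *Igfals*, which encodes the carrier subunit of serum, reached 2.43 CPM at most and was not tested.

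At the receptor, *Insr*, *Irs1* and *Irs2* were examined as the related receptor and the docking proteins. *Insr* was at 48.9 to 56.4 CPM in juvenile, 34.6 to 40.7 CPM in adult, 28.5 and 32.7 CPM in *c-Myc* and 38.0 and 38.6 CPM in *c-Myc* + *R172H* libraries. It was higher in juvenile than in adult osteoblasts (0.53, SE 0.12, adjusted p = 0.0224). With TMM scaling it was lower with *c-Myc* (-0.86, SE 0.12) and *c-Myc* + *R172H* (-0.51, SE 0.12). Library totals gave -0.03 (adjusted p = 0.880) and 0.53 (adjusted p = 0.0123, edgeR), the second called in the opposite direction. The age call ended with library totals as well (0.29, adjusted p = 0.311). *Irs2* was likewise higher in juvenile osteoblasts (0.82, SE 0.20, adjusted p = 0.0257) and lower in both induced groups (-1.12, SE 0.16, and -1.01, SE 0.16), but none of the 3 calls held with library totals (0.56, adjusted p = 0.134, between the ages, -0.28, adjusted p = 0.170, with *c-Myc* and 0.04 with *c-Myc* + *R172H*). *Irs1* did not pass the test between the ages (-0.02, SE 0.13) and fell by 1.41 (SE 0.15) and by 1.72 (SE 0.15). In all, 7 of 11 tested adaptors and phosphatases were lower and 2 higher in each induced group (25.0% and 26.3% of all genes lower). With library totals 3 and 4 of the 7 changed sign and *Irs1* alone was still called lower.

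Further downstream, the PI3K, AKT and mTOR genes were followed. *Pik3r1*, the regulatory subunit of PI3K, fell by 1.63 (SE 0.18) and by 1.64 (SE 0.18), and 3 and 5 of 14 genes of the PI3K and AKT list were lower with 0 higher, where 25.0% and 26.3% of all genes were lower. With library totals *Pik3r1* alone was still called, and 2 of the 3 and 4 of the 5 changed sign. In the mTOR list 5 of 13 were higher in each induced group and 0 lower, where 28.4% and 30.4% of all genes were higher, among them *Eif4ebp1*, a repressor of translation (0.87, SE 0.13, and 0.81, SE 0.13), and *Sesn2*, a stress-induced inhibitor of mTORC1 (0.98, SE 0.16, and 0.48, SE 0.16). *Trib3*, a pseudokinase that binds AKT, had the largest increase of the called genes, with 28, 35, 30 and 40 counts in the induced libraries against 3, 0, 0 and 0 in juvenile libraries (log2 fold change 4.17, SE 1.00, adjusted p = 0.00370, and 4.24, SE 1.00, adjusted p = 0.00299, both edgeR). Adult libraries had 0, 6, 17 and 1 counts of it. It had enough counts for this test only through the induced libraries, and with 3 juvenile counts the ratio of levels was 19.6 (95% counting interval 6.42 to 97.7) and 20.7 (6.78 to 103).

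**Figure D4:**
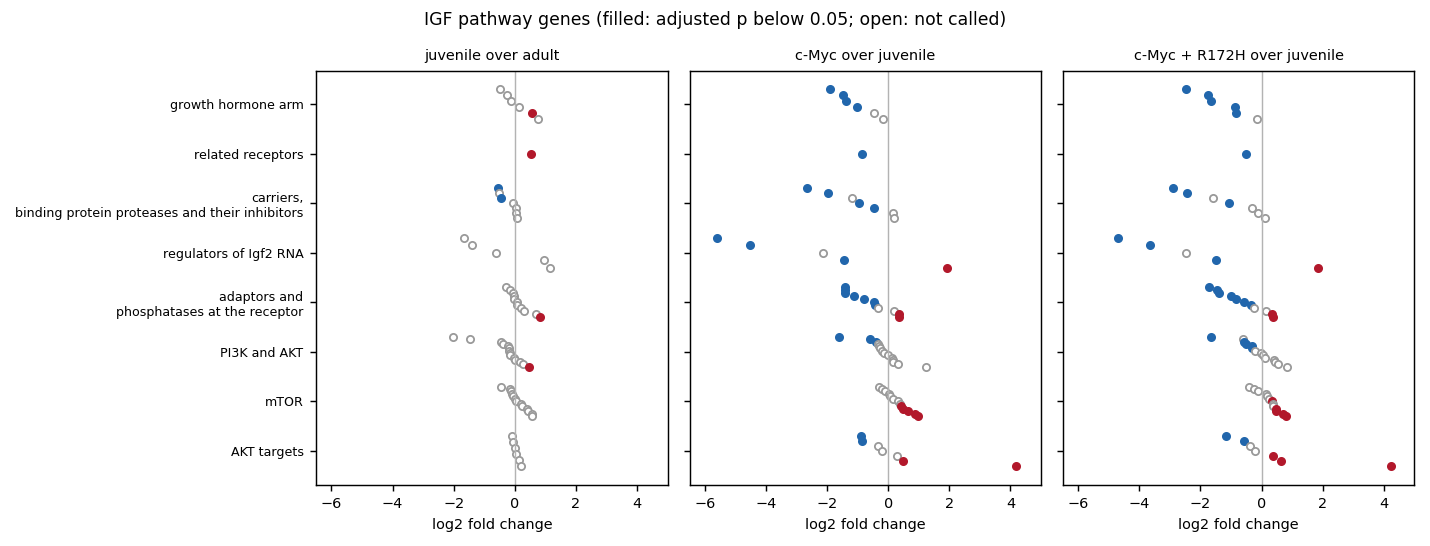
Log2 fold changes (horizontal axes, the same range in each panel) of the tested genes of the IGF pathway list, by role (rows), between the ages and between each induced group and juvenile osteoblasts. Filled red and blue points passed an adjusted p of 0.05 upward and downward with TMM scaling, and open points did not. Few genes are filled between the ages, and in both induced groups all filled genes of the growth hormone arm and the protease row lie to the left and all filled mTOR genes to the right.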

How the data were processed

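Reads of 12 libraries of sorted mGFP+ cells were trimmed by the authors with cutadapt 4.6, aligned to mm10 with STAR 2.7.11a and counted per gene with HTSeq 2.0.5, as the submitters' processing notes and the methods give it, and the authors deposited raw read counts without normalization. Groups and replicate numbers came from the titles. The members and lists were chosen with earlier results of these data known.

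Counts were tested in R 4.3.3 with edgeR 4.0.16 (TMM factors, the default filter with a minimum count of 10, robust quasi-likelihood F test, Benjamini-Hochberg adjustment over all genes tested, threshold 0.05). The ages were fitted on 8 libraries, and the other comparisons shared one fit over the 4 juvenile and 4 induced libraries. SEs were obtained by dividing each estimate by the root of its F statistic. Levels are normalized CPM over the 12 libraries, divided by the exon length of GENCODE genes of GRCm38 where genes are compared. Detection floors of 3 counts and 95% intervals cover counting error only. Likeness is Pearson's r of log2(CPM + 1) among genes with a mean of at least 5 CPM. In simulated counts with a log2 fold change of 1, the age design recovered 49.5% of 196 altered genes, against 49.7% of 197 for *c-Myc* over juvenile and 44.6% of 195 between the induced groups. These were tested among 11133, 12266 and 12235 genes, a far smaller altered part than the share called with *c-Myc*. The recovery for *c-Myc* over juvenile therefore does not carry over to the real data.

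Named pathway genes are 14 set ones and, per comparison, up to 4 called genes with the largest increase and decrease. *Plagl1*, *Pik3r1*, *Stat5a*, *Adam9*, *Adamts1* and, with the induced groups, *Jak2* were named after their values were seen. Replicate numbers were not taken as pairs, since no label ties them to a litter, batch or day. Same-numbered samples correlated at -0.145 to 0.115 between the ages, as deviations from each group mean. The library names number the adult samples differently from the titles. These correlations and the replicate block, which use the title numbers, therefore cannot tell whether the ages were paired. With 2 libraries per group the deviations mirror each other, so both same-numbered pairs of induced libraries give 1 and the same value, 0.294. Both replicate 2 libraries expressed *Xist*. Replicates of each group differed by more than sampling noise (chi-square per degree of freedom of at least 5.75). Alternatives were RLE and upper-quartile factors, library totals, other filters, DESeq2 1.42.0, other sets of libraries, a replicate block, the 3 most abundant genes left out and each library left out in turn. Protein sequences were not used here.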

Additional observations from a re-analysis of the deposited data

Results flagged for a closer look

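In groups of 4 libraries, 18 sets of gene levels were examined for a library far from the others with Dixon's criterion. The *Igf2* share of the ligands and the summed binding proteins were examined likewise in juvenile and in adult libraries. Chance meets the criterion in about 1 of 20 sets, and 2 sets of gene levels met it. Both concern juvenile replicate 4. *Igfbp3* was at 0.980 CPM in that library and at 4.11 to 4.51 CPM in the other juvenile libraries, and *Igfbp4* was at 292 CPM there and at 195 to 209 CPM in the others. The same library had the lowest chondrocyte marker sum of the juvenile group, 18525 CPM against 28439 to 36379 CPM, and the part of these cells in either value was not tested.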

How the results depend on the processing

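Depth limits the genes with few counts, *Igfbp2* and *Igfbp6* above all, and groups of 2 libraries limit both induced groups. With library totals the median of all genes moved by -0.24 between the ages, 0.87 with *c-Myc*, 0.21 between the induced groups and 1.12 with *c-Myc* + *R172H*. The cause of the changes below was not tested.

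Library totals reversed *Igf1r* (0.62), *Igf2r* (0.72) and *Igfbp5* (0.19) with *c-Myc*, *Igf2r* (0.95) and *Igfbp5* (0.60) with *c-Myc* + *R172H*, and *Igfbp3* between the induced groups (0.21). All 12 libraries in one fit reversed *Igf2r* between the ages (0.0047) and between the induced groups (-0.0021). The replicate numbers were not taken as pairs. Same-numbered libraries correlated at -0.145 to 0.115 between the ages, where the library names of the adult samples carry numbers other than the titles. Both induced pairs share a single value, 0.294, and their replicate 2 libraries share *Xist* expression. A replicate block by title number reversed *Igf2r* between the ages (0.00058), *Igfbp3* between the induced groups (0.0019) and *Igf1r* with *c-Myc* + *R172H* (-0.013). Under the block the call of *Igfbp6* between the ages was lost (adjusted p = 0.0661) and *Igfbp7* was called between the induced groups. Without both libraries that express *Xist*, *Igfbp3* reversed between the induced groups (0.57). With single libraries left out, the values of the results that reversed ranged from -0.044 to 0.075 for *Igf2r* between the ages, from -0.035 to 0.23 for *Igf1r* with *c-Myc* + *R172H* and, between the induced groups, from -0.092 to 0.084 for *Igf2r*, -0.40 to 0.30 for *Igfbp3* and -0.73 to 0.15 for *Igf2*.

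Values as reported were, for all genes, 214 higher and 367 lower between the ages, 3577 higher and 3149 lower with *c-Myc*, 1 higher and 58 lower between the induced groups, 3832 higher and 3311 lower with *c-Myc* + *R172H*. Counts of called genes that differed from the reported ones by more than 1.5 times were as follows. When a change of at least 1 on the log2 scale was also asked for, pathway genes came to 0 higher and 0 lower between the ages, 2 higher and 14 lower with *c-Myc*, 2 higher and 15 lower with *c-Myc* + *R172H*, and all genes came to 43 higher and 222 lower between the ages, 2320 higher and 2010 lower with *c-Myc*, 0 higher and 32 lower between the induced groups, 2466 higher with *c-Myc* + *R172H*. With RLE factors, members came to 1 lower between the induced groups. With library totals, members came to 0 higher between the ages, 3 higher with *c-Myc*, 4 higher with *c-Myc* + *R172H*, and pathway genes came to 0 higher between the ages, 37 higher and 9 lower with *c-Myc*, 40 higher and 8 lower with *c-Myc* + *R172H*, and all genes came to 53 higher and 793 lower between the ages, 6803 higher and 1115 lower with *c-Myc*, 11 lower between the induced groups, 7668 higher and 1169 lower with *c-Myc* + *R172H*. Without a filter on low counts, members came to 0 higher between the ages, 1 lower between the induced groups, and all genes came to 399 higher and 578 lower between the ages, 14 higher and 208 lower between the induced groups. With a minimum of 10 counts in each library, members came to 1 lower between the induced groups, 0 higher with *c-Myc* + *R172H*. With DESeq2, members came to 1 lower between the induced groups, 0 higher with *c-Myc* + *R172H*, and pathway genes came to 1 lower between the induced groups, and all genes came to 619 lower between the ages, 8 higher and 200 lower between the induced groups. With all 12 libraries in the fit, members came to 1 lower between the induced groups, and all genes came to 461 higher and 633 lower between the ages, 0 higher and 22 lower between the induced groups. With only the groups compared in the fit, members came to 1 higher and 1 lower between the induced groups, 0 higher with *c-Myc* + *R172H*, and pathway genes came to 2 higher and 5 lower between the induced groups, 7 higher with *c-Myc* + *R172H*, and all genes came to 189 higher and 440 lower between the induced groups. Without *Col1a1*, *Col1a2* and *Gm26917*, members came to 1 lower between the ages, 0 higher with *c-Myc* + *R172H*. With the replicate block, members came to 1 lower between the ages, 1 lower between the induced groups, 0 higher with *c-Myc* + *R172H*, and pathway genes came to 1 lower between the ages, 1 higher and 2 lower between the induced groups, and all genes came to 30 higher and 296 lower between the induced groups. Without both libraries that express *Xist*, an alternative chosen after seeing the data, members came to 0 higher and 3 lower with *c-Myc* + *R172H*, and pathway genes came to 5 higher with *c-Myc*, 3 higher and 17 lower with *c-Myc* + *R172H*, and all genes came to 2286 higher and 1969 lower with *c-Myc*, 2 lower between the induced groups, 2331 higher and 2161 lower with *c-Myc* + *R172H*. With the longest transcript as the length, 20 of 64 levels and shares moved by more than 1 SD.

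With each library of a fit left out in turn, members came to 0 to 1 higher and 1 to 3 lower between the ages, 0 to 1 higher and 3 to 5 lower with *c-Myc*, 0 higher and 0 to 1 lower between the induced groups, 0 to 1 higher and 3 to 6 lower with *c-Myc* + *R172H*. Pathway genes came to 0 to 7 higher and 0 to 3 lower between the ages, 5 to 11 higher and 18 to 26 lower with *c-Myc*, 0 higher and 0 lower between the induced groups, 4 to 12 higher and 17 to 28 lower with *c-Myc* + *R172H*, and all genes came to 85 to 344 higher and 199 to 541 lower between the ages, 2624 to 3761 higher and 2150 to 3337 lower with *c-Myc*, 0 to 3 higher and 7 to 84 lower between the induced groups, 2748 to 3998 higher and 2417 to 3476 lower with *c-Myc* + *R172H*.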
